A study of Homo sapiens with 12 samples.

Results

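The genes described here act in mitosis, the stage at which a cell condenses its duplicated chromosomes, attaches them to a spindle and parts them into daughter cells. The 44 genes were listed by name for that role, with earlier results of these data known. They were matched by symbol to the Ensembl identifiers of the count tables, which list 40649 genes. All 44 were found and all 44 passed the filter on low counts. They were sorted by role into 9 kinases, cyclins, phosphatases and a transcription factor of mitotic entry, 5 genes of the spindle checkpoint, 6 of the kinetochore and centromere, 4 of the chromosomal passenger complex, 8 kinesins, 5 of spindle assembly and the midzone, 2 of cytokinesis, 2 of chromosome structure and surface, and 3 of anaphase and ubiquitin transfer.

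RNA was sequenced in bulk from HK-2 cells, an immortal human cell line derived from the epithelium of the kidney's proximal tubule. The first group of 4 libraries, labelled YH, came from cells with a Yap1 knockdown that received hydrogen peroxide (H2O2), an oxidant, at 150 µM for 48 h. The second group of 4, labelled H2O2, carried the control hairpin ShNC and received the same oxidant at 150 µM for 48 h. The third group of 4, labelled ShNC, carried the control hairpin with no oxidant. YAP1 is a transcriptional coactivator that works through TEAD factors and is known to promote proliferation. A knockdown without oxidant was not analysed here. YH libraries can therefore be compared with H2O2 libraries for the knockdown under oxidant, and with ShNC libraries only for both together. Any other difference between the cultures of the groups enters the same comparisons. The labels give neither the promoter of the hairpins nor the number of hairpin sequences or clones. They name the HK-2 line, while the extraction text speaks of kidney tissue. Whether the 4 libraries of a group were separate cultures is not stated, and p-values therefore cover only the variation between these samples, possibly technical.

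Mitotic genes are transcribed mainly in G2 and M phase, under the control of a repressor and activator assembly (DREAM, B-MYB and FOXM1) that binds the cell cycle genes homology region, or CHR, together with CCAAT boxes bound by NF-Y. The cyclin B kinase CDK1 drives entry, polo-like and Aurora kinases build the spindle and correct attachments, and CDC20 with the anaphase-promoting complex destroys cyclin B and securin once every kinetochore is attached. Tubule cells divide seldom in a healthy adult kidney and re-enter the cycle after injury, whereas HK-2 cells divide in culture.

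Promoter sequences are shown for 6 genes that take opposite sides of the comparison of YH with H2O2 libraries described below, a choice made after their values were seen. KIF20A, KIF11 and CENPA were lower in YH libraries, and CDC20, PTTG1 and PLK1 were higher. Each sequence is the 120 bases before the RefSeq start site (GRCh38.p14), written 5′ to 3′ on the gene's strand. Capitals mark the CHR forms TTTGAA and TTTAAA and the box CCAAT, on either strand. In PTTG1, a pair of CCAAT matches on opposite strands overlap.
KIF20A, chr5:138178992-138179111, plus strand: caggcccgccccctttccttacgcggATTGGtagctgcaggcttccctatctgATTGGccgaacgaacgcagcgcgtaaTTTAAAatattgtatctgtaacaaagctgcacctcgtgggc
KIF11, chr10:92593010-92593129, plus strand: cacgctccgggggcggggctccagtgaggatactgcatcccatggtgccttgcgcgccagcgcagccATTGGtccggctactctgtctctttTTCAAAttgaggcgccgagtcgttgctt
CENPA, chr2:26785936-26786055, plus strand: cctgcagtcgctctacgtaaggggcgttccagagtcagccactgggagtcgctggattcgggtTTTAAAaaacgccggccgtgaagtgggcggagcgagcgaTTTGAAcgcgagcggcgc
CDC20, chr1:43358861-43358980, plus strand: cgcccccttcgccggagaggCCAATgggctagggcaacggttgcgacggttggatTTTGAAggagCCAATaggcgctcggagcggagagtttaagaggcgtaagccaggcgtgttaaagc
PTTG1, chr5:160421735-160421854, plus strand: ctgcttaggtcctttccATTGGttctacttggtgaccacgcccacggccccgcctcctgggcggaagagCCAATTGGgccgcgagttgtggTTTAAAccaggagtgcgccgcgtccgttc
PLK1, chr16:23678769-23678888, plus strand: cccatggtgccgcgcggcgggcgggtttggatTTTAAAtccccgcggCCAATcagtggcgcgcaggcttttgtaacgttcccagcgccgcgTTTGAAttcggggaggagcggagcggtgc
A CHR form stood in each of these 6 windows, at all 3 genes on either side.

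The promoter table, which runs from 250 bases before to 50 after the start, held 37 of the 44 genes. TTTGAA was present in 26 of the 37 (70.3%), against 9.81% of the 12478 promoters of tested genes in the table. TTTAAA was present in 13 (35.1%), against 7.93%, and either form in 31 (83.8%), against 16.1%. CCAAT was present in 30 (81.1%), against 36.1%. By contrast, the TEAD letters GGAATG stood in 4 promoters (10.8%), against 10.96%, and the E2F letters TTTGGCGC or TTTCGCGC in 2 (5.41%), against 1.90%. These matches are short runs of letters on either strand and mark no measured binding. Sequence outside the windows was not searched, so the TEAD share says nothing about sites farther from the start. The same either-form CHR was found in 5 of 5 promoters of genes higher in YH than in H2O2 libraries, in 13 of 15 of those lower and in 13 of 17 of those not called, so this letter run was common on every side. Genes of S phase, the earlier stage at which DNA is copied, had a CHR form in 3 of 15 promoters and the E2F letters in 6 of 15. CCAAT was present in 11 of these 15 (73.3%), a share near that of the mitosis genes. A wider list of other mitosis genes, described below, had a CHR form in 43 of 87 promoters (49.4%) and CCAAT in 46 (52.9%).

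**Figure D1:**
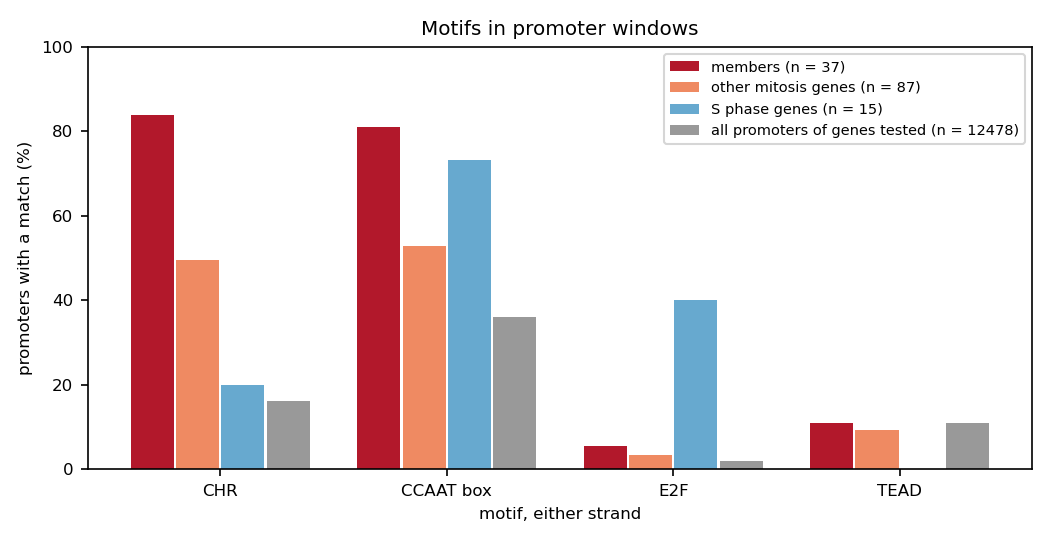
Share of promoter windows (percent, linear axis from 0) with at least 1 match on either strand, for the mitosis genes with a window, other mitosis genes, S phase genes and all tested genes with a window. CHR stands for either form; it was present in 83.8% of the mitosis genes' windows and 16.1% of all, whereas the TEAD letters were present in 10.8% and 10.96%.

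The libraries held 30789997 to 46582873 counted reads, so that 3 counts correspond to 0.0644 to 0.0974 CPM (read counts scaled to library size). Mitochondrially encoded genes took 11.3% of the counts in YH 3 and 13.9% in ShNC 4, against 4.54% to 5.64% in the other 10 libraries, and these 2 libraries stood apart from their groups for many genes below. Calls between H2O2 and ShNC or between YH and H2O2 libraries that depend on them are therefore given with and without them. These 2 libraries were singled out after the data were seen, so adjusted p-values without them rest on the closer spread of the libraries kept. The targeted gene, YAP1, had 131, 135, 111 and 136 CPM in YH libraries, 155, 151, 156 and 164 CPM in H2O2 libraries and 136, 130.3, 140.5 and 124 CPM in ShNC libraries. All 4 YH libraries were below all 4 H2O2 libraries (log2 fold change −0.29 ± 0.07, adjusted p = 0.00346, edgeR quasi-likelihood test with Benjamini-Hochberg adjustment over all tested genes). YH libraries overlapped ShNC libraries (−0.05 ± 0.07, adjusted p = 0.636), and H2O2 libraries were called higher than ShNC libraries (0.24 ± 0.07, adjusted p = 0.0104). Of 12 tubule epithelium markers, the summed level was 1288 to 1566 CPM in YH, 1680 to 1720 in H2O2 and 1399 to 1451 in ShNC libraries, and 4 (AQP1, ANPEP, CUBN and LRP2) were under 1 CPM in every library. Summed markers of leukocytes stayed between 1.27 and 2.20 CPM, those of endothelium at or under 0.435 CPM and those of other nephron segments under 0.698 CPM. The 6 fibroblast markers summed to 143 to 172 CPM in YH, 236 to 255 in H2O2 and 110.0 to 113 in ShNC libraries, and their part in the results was not tested.

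Compared per kilobase of exon, which allows levels of different genes to be set side by side, the mitosis genes spanned a wide range. The highest mean levels over all 12 libraries were those of UBE2C (97.2 CPM per kb), TOP2A (91.3), TPX2 (89.0), CDC20 (75.4) and CCNB1 (57.4). CDC25C stood at 3.96 CPM per kb. PRC1 and NUSAP1 lay far below at 0.128 and 0.107 CPM per kb. PRC1 had a mean of 0.704 CPM and NUSAP1 of 0.308 CPM, and other annotated genes overlap 58.4% of the exon bases of PRC1 and 62.2% of those of NUSAP1. Where reads shared by overlapping genes are dropped, such a gene is undercounted, and the counting rule is not given in the sources used here, so both values are uncertain. Neither gene was called in any comparison.

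Taken over all 44 genes, summed CPM was 4577, 4649, 5007 and 4637 in YH libraries, 4839, 4790, 4824 and 4833 in H2O2 libraries, and 5765, 5903, 5784 and 6115 in ShNC libraries. Every library with oxidant was below every ShNC library. In bulk RNA, fewer cells in mitosis and less of these transcripts per cell cannot be told apart. Within groups, the median coefficient of variation over the 44 genes was 8.39% in YH, 3.17% in H2O2 and 9.29% in ShNC libraries. It was 3.51% in YH without YH 3 and 2.42% in ShNC without ShNC 4. With all libraries kept, the coefficient exceeded 10% in 16 genes in YH, 2 in H2O2 and 21 in ShNC libraries.

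With H2O2, compared with ShNC, 24 of the 44 genes fell, none rose and 20 were not called at an adjusted p under 0.05. Of all 19268 genes tested, 46.6% were called, 23.9% higher and 22.6% lower, so 24 lower and 0 higher stands against a background split almost evenly. Because the list was made with earlier results of these data known, this contrast is a description. The median log2 fold change of the 44 genes was −0.23, against 0.00 over all genes tested, and 43 of 44 values were negative. In 26 genes, all 4 H2O2 libraries lay below all 4 ShNC libraries, against 22.9% of all genes tested, and in 0 genes did they lie above, against 25.2%. Without ShNC 4 and YH 3, 33 genes were called lower and 0 higher, where 59.4% of all genes tested were called, 29.6% lower and 29.8% higher.

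In YH compared with H2O2 libraries, 16 genes fell, 5 rose and 23 were not called. Here 43.0% of all genes tested were called, 22.0% higher and 21.0% lower. The share of mitosis genes called in either direction, 47.7%, was near that background. Its split, 16 lower and 5 higher, was uneven, whereas that of all genes tested was almost even. The median was −0.09, against −0.00 over all genes. In 19 genes all 4 YH libraries lay below all 4 H2O2 libraries, against 22.7% of all genes tested. In 5 genes they lay above, against 22.5%. Of the 16 genes that fell, 11 were kinetochore genes or kinesins, and the 5 that rose were CDC20, PTTG1, HMMR, PLK1 and ECT2. A difference between roles was not tested, and the calls of HMMR, PLK1 and ECT2 were lost, and calls of TPX2 and UBE2C as higher gained, in the setting on neighbouring genes described below. Without ShNC 4 and YH 3, 23 genes were called lower and 7 higher, where 28.5% of all genes tested were called lower and 28.8% higher. This comparison and the preceding one share the H2O2 libraries, so a high or low value there moves both, in opposite directions.

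Differences between the groups also ran along stretches of chromosome. Each gene was therefore also set against the median fold change of a window of 51 tested genes, itself included. The window was centred on the gene except near chromosome ends. This median, the shift of neighbouring genes, came from the same 12 libraries and was entered as fixed. Adjusted p-values with it removed therefore leave out its error. With that shift of neighbouring genes removed, 24 genes were lower and 2 higher in H2O2 relative to ShNC libraries, and 16 lower and 4 higher in YH relative to H2O2. Among the 44 genes, only ECT2, SPC24, CENPF and KIF14 had a log2 shift over 0.3 in size between H2O2 and ShNC libraries. Between YH and ShNC libraries the shift at these genes was 0.03, 0.06, −0.03 and 0.05, in that order. Values are given below wherever removing the shift ended or made a call in H2O2 minus ShNC or YH minus H2O2. Whether the cultures differed in chromosome copy number was not tested. In these groups such a difference cannot be told apart from the oxidant or the knockdown.

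**Figure D2:**
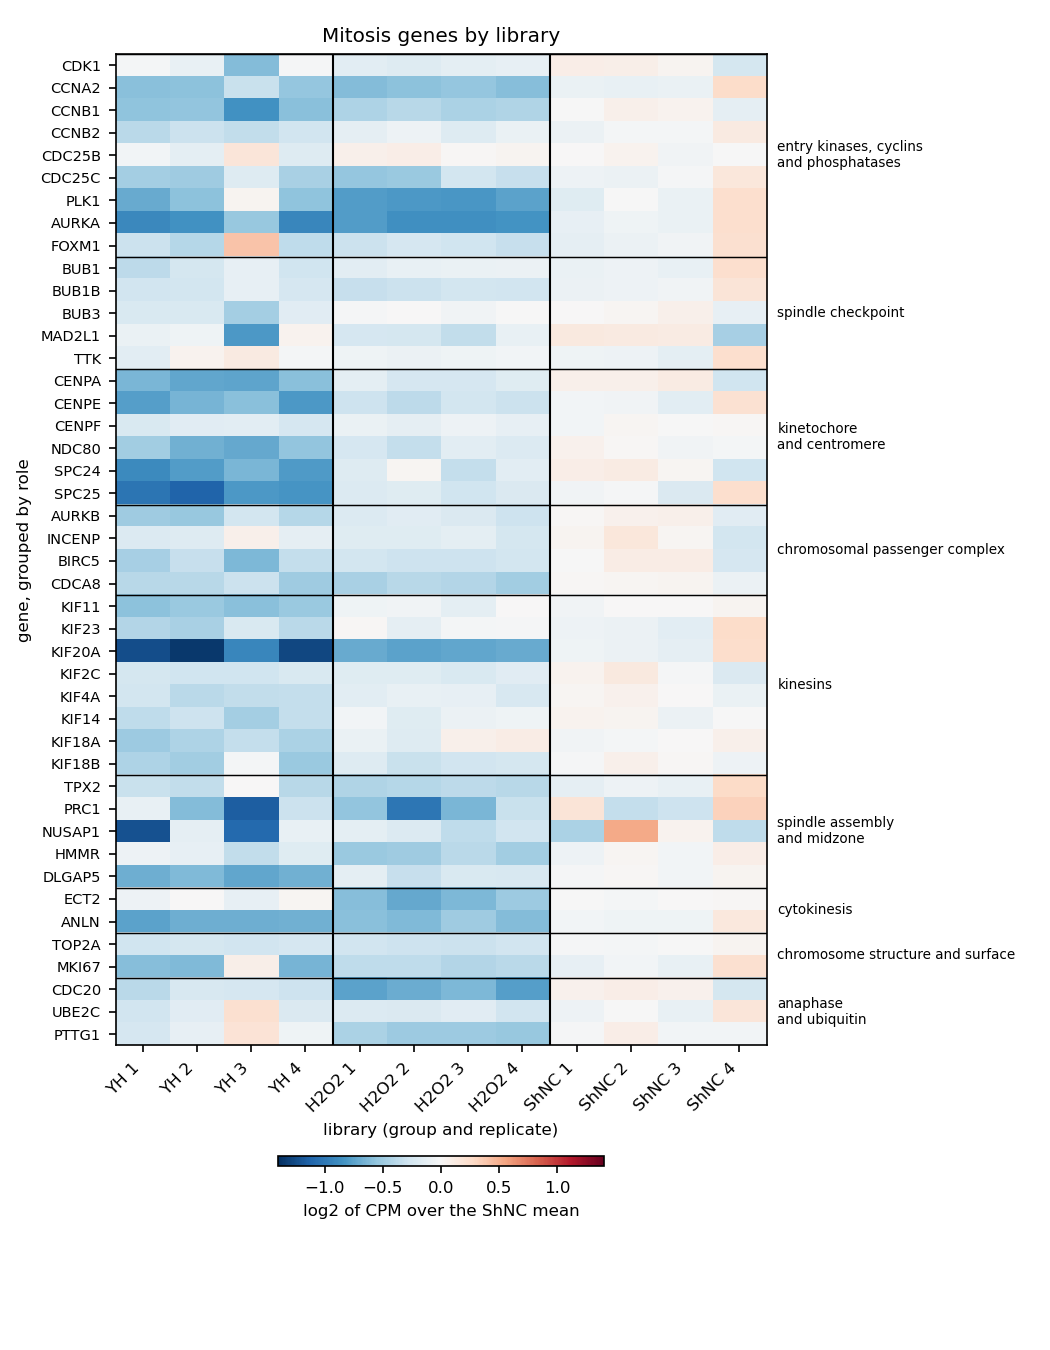
The 44 genes in rows, grouped by role, and the 12 libraries in columns (YH, H2O2, ShNC). Colour gives the log2 of each library's CPM over the mean of the 4 ShNC libraries, from blue (lower) to red (higher). The AURKA and KIF20A rows are blue in all 8 libraries with oxidant, SPC25 and KIF11 are darker in YH than in H2O2 libraries, and ECT2 is blue in H2O2 libraries alone; YH 3 and ShNC 4 differ from the other libraries of their groups.

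**Figure D3:**
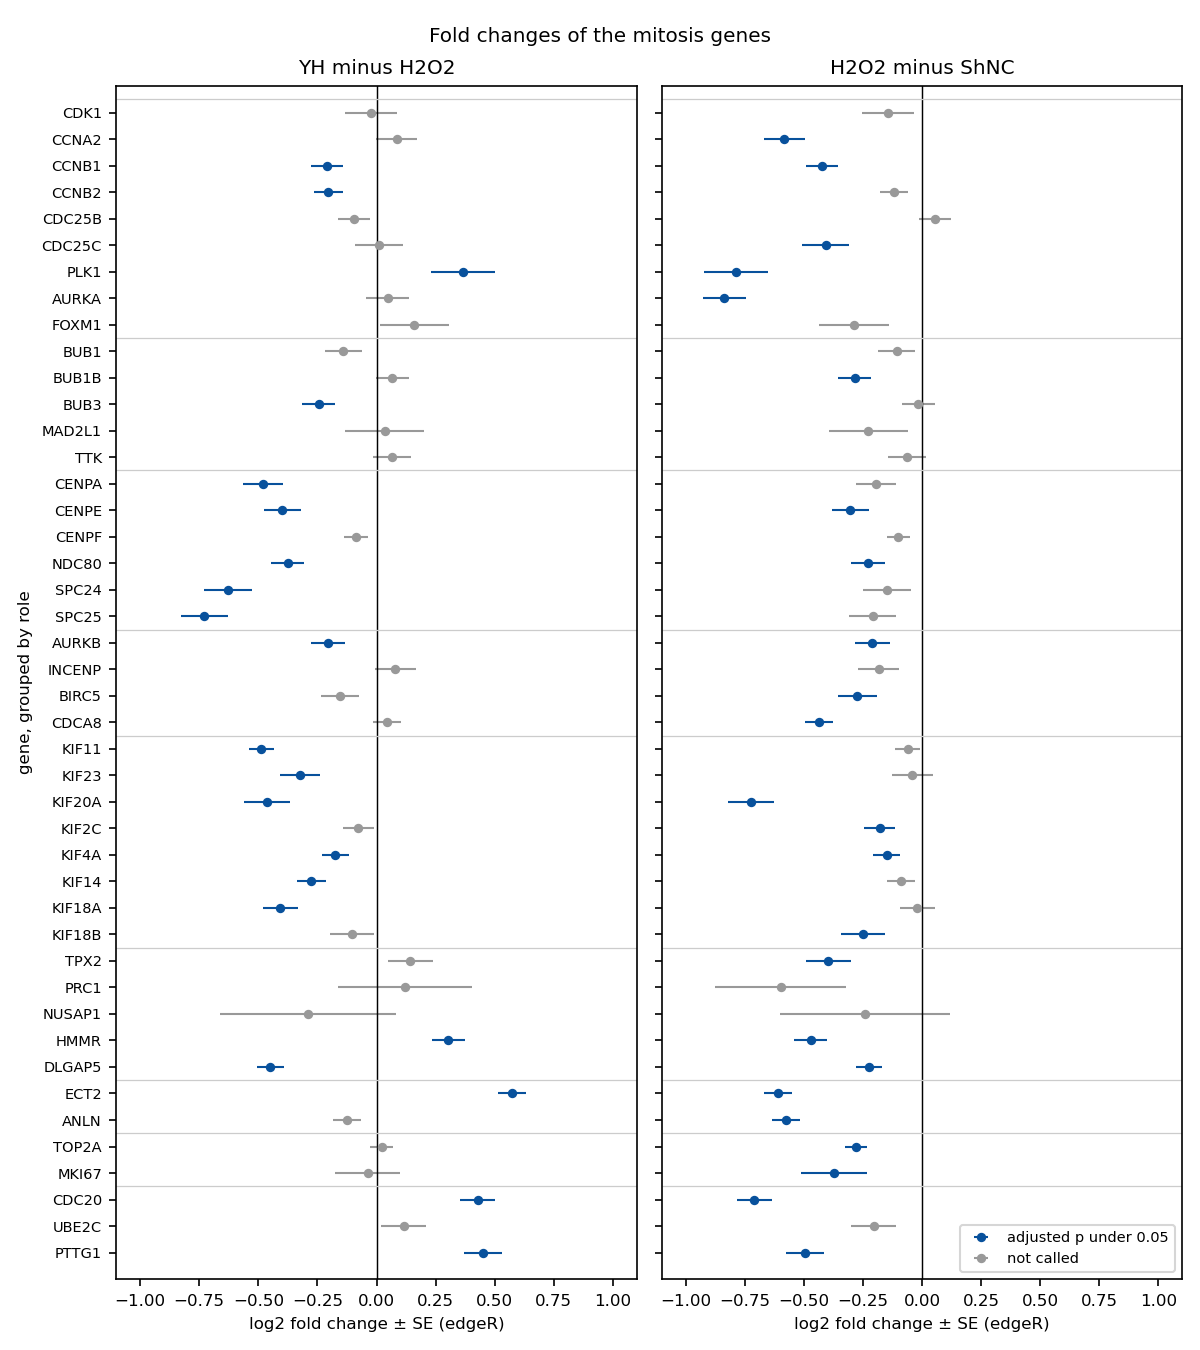
Log2 fold changes with standard errors (edgeR, all 12 libraries in 1 fit) for YH minus H2O2 on the left and H2O2 minus ShNC on the right, with genes in the same order in both panels. Blue points passed an adjusted p under 0.05. On the right all 24 blue points lie below 0; on the left 16 lie below and 5 above.

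Of the 9 genes of mitotic entry, 5 fell with H2O2 (AURKA, PLK1, CCNA2, CCNB1 and CDC25C) and 4 were not called. AURKA (ENSG00000087586, chr20:56369389-56392337, GRCh38), the Aurora kinase of centrosomes and spindle poles, had 82.7, 85.8, 106 and 82.2 CPM in YH libraries, 89.4, 85.04, 85.1 and 86.2 CPM in H2O2 libraries and 142, 148, 145 and 182 CPM in ShNC libraries. All 8 libraries with oxidant were below all 4 ShNC libraries. The log2 fold change was −0.84 ± 0.09, adjusted p = 1.96e-06 for H2O2 minus ShNC, the largest fall among the 44 genes in that comparison, and 0.05 ± 0.09, adjusted p = 0.714 for YH minus H2O2, where the groups overlapped. PLK1 (chr16:23677656-23690367), the polo-like kinase that acts from mitotic entry to cytokinesis, had 56.8, 62.4, 95.7 and 62.8 CPM in YH libraries, 54.02, 53.4, 52.9 and 55.2 CPM in H2O2 libraries and 82.4, 92.2, 87.4 and 109.5 CPM in ShNC libraries. H2O2 libraries were lowest and did not overlap either other group (−0.79 ± 0.14, adjusted p = 0.000232, for H2O2 minus ShNC). PLK1 rose in YH relative to H2O2 libraries (0.36 ± 0.14, adjusted p = 0.0421), but 95.7 CPM in YH 3 was far from the other YH libraries. Left out singly, YH 3, ShNC 2, ShNC 3 or any of the 4 H2O2 libraries took the adjusted p of that rise to between 0.0506 and 0.105, with a fold change between 0.17 and 0.38, and without ShNC 4 and YH 3 together it was 0.17 (adjusted p = 0.00131). With the shift of neighbouring genes removed it was 0.24 (adjusted p = 0.174).

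CCNB1, cyclin B1, the partner of CDK1 at mitotic entry, had 124, 126, 103 and 123 CPM in YH libraries, 137, 140.5, 136 and 137 CPM in H2O2 libraries and 184, 194, 191 and 169 CPM in ShNC libraries. The groups followed one another without overlap, YH lowest and ShNC highest. CCNB1 fell with H2O2 relative to ShNC (−0.42 ± 0.07, adjusted p = 0.000113) and fell in YH relative to H2O2 (−0.21 ± 0.07, adjusted p = 0.0226); without H2O2 2 the second value was −0.20 with an adjusted p of 0.0586. CCNA2, cyclin A2, which serves S phase and early mitosis, fell with H2O2 (−0.58 ± 0.09), as did the phosphatase CDC25C, an activator of CDK1 (−0.41 ± 0.10), and neither was called between YH and H2O2 libraries. Relative to neighbouring genes the value of CDC25C was −0.26 (adjusted p = 0.0484). Cyclin B2, CCNB2, was not called with H2O2 (−0.12 ± 0.06, and 0.00 relative to neighbouring genes) and fell in YH relative to H2O2 libraries (−0.20 ± 0.06, adjusted p = 0.0129).

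CDK1, the kinase itself, had 172, 163, 116 and 174 CPM in YH libraries, 158, 155, 159 and 162 CPM in H2O2 libraries and 187, 186, 181 and 148 CPM in ShNC libraries. H2O2 and ShNC libraries overlapped only through ShNC 4. CDK1 was not called in H2O2 minus ShNC (−0.14 ± 0.11, adjusted p = 0.302) or in YH minus H2O2 (−0.02 ± 0.11, adjusted p = 0.881), where YH 3 lay below the other libraries. Without ShNC 4 and YH 3 the values were −0.22 (adjusted p = 6.59e-07) for H2O2 minus ShNC and 0.10 (adjusted p = 0.0147) for YH minus H2O2, the second with the opposite sign. FOXM1, the transcription factor that drives many genes of this set, had 78.6, 73.3, 128 and 75.4 CPM in YH libraries, 78.5, 81.99, 79.7 and 77.1 CPM in H2O2 libraries and 88.8, 91.7, 93.8 and 113 CPM in ShNC libraries. All 4 H2O2 libraries were below all 4 ShNC libraries, yet the difference was not called (−0.29 ± 0.15, adjusted p = 0.126), and 128 CPM in YH 3 exceeded every other library. Without YH 3 alone the adjusted p was 0.00254 with a fold change of −0.29. CDC25B, the phosphatase active at the centrosome, had the highest CPM of the entry genes, with 217, 204, 250.4 and 197 CPM in YH libraries, 235, 237, 226 and 229 CPM in H2O2 libraries and 224, 231, 215 and 222 CPM in ShNC libraries. It was the only 1 of the 44 genes with a positive value in H2O2 minus ShNC (0.06 ± 0.07, adjusted p = 0.536), and the groups overlapped. In YH minus H2O2 it was not called (−0.10 ± 0.07, adjusted p = 0.281); without YH 3 it was lower, by −0.17 with an adjusted p of 0.0104.

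The spindle checkpoint, which holds back anaphase while any kinetochore is unattached, had 1 of 5 genes that fell with H2O2 (BUB1B), 1 that fell in YH relative to H2O2 libraries (BUB3) and none that rose in either. BUB1B, the checkpoint protein BubR1, had 57.3, 58.1, 64.05 and 58.6 CPM in YH libraries, 55.5, 56.2, 57.9 and 57.6 CPM in H2O2 libraries and 65.3, 65.8, 67.02 and 78.5 CPM in ShNC libraries. Every H2O2 library was below every ShNC library (−0.28 ± 0.07, adjusted p = 0.0029), and YH and H2O2 libraries overlapped (0.07 ± 0.07, adjusted p = 0.464). With the shift of neighbouring genes removed the first value was −0.17 (adjusted p = 0.0565). BUB3, which carries BUB1 and BubR1 to the kinetochore, had the highest CPM of the role, with 180.4, 180.3, 150.5 and 188 CPM in YH libraries, 207, 211, 202 and 209 CPM in H2O2 libraries and 210.1, 214, 221 and 193 CPM in ShNC libraries. H2O2 and ShNC libraries overlapped (−0.02 ± 0.07, adjusted p = 0.875), and all 4 YH libraries were below all H2O2 libraries (−0.24 ± 0.07, adjusted p = 0.00976). The kinases BUB1 and TTK and the inhibitor MAD2L1 were called in neither comparison, with values of −0.11, −0.06 and −0.23 for H2O2 minus ShNC. MAD2L1 was low in YH 3 (59.1 CPM, against 96.7 to 107 in the other YH libraries) and in ShNC 4 (74.8, against 112 to 114 in the other ShNC libraries). Without these 2 libraries it was lower with H2O2, −0.36 (adjusted p = 2.24e-08), and higher in YH than in H2O2 libraries, 0.19 (adjusted p = 0.000464). BUB1 was lower in YH than in H2O2 libraries without ShNC 4 alone (−0.14, adjusted p = 0.0294), and relative to neighbouring genes it was lower with H2O2, −0.33 (adjusted p = 0.00299).

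The kinetochore and centromere genes build the site where spindle microtubules meet the chromosome. Of 6 genes, 5 fell in YH relative to H2O2 (SPC25, SPC24, CENPA, CENPE and NDC80) and 2 of them, CENPE and NDC80, fell with H2O2 relative to ShNC. Summed CPM of the 6 was 564, 581, 588 and 558 in YH libraries, 652, 638, 656 and 643 in H2O2 libraries and 703, 722, 701 and 725 in ShNC libraries. The 3 groups did not overlap. CENPF, called in neither of these comparisons, made up most of the sums, with means of 451 CPM in YH, 479 in H2O2 and 513 in ShNC libraries. SPC25 (ENSG00000152253, chr2:168834132-168913371), a subunit of the NDC80 complex that grips microtubules, had 9.93, 9.31, 11.6 and 11.4 CPM in YH libraries, 17.7, 18.01, 16.7 and 17.5 CPM in H2O2 libraries and 19.6, 19.9, 17.6 and 23.7 CPM in ShNC libraries. All YH libraries were below every other library (−0.73 ± 0.10, adjusted p = 2.74e-05, for YH minus H2O2), the largest fall of the 44 genes in that comparison. H2O2 minus ShNC was not called (−0.21 ± 0.10, adjusted p = 0.095); without ShNC 3 it was −0.27 with an adjusted p of 0.0437, and relative to neighbouring genes −0.33 (adjusted p = 0.0133).

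SPC24, the partner of SPC25, averaged 12.5 ± 0.901 CPM in YH, 19.3 ± 2.00 in H2O2 and 21.4 ± 2.54 in ShNC libraries (SD, n = 4 each), and fell in YH relative to H2O2 (−0.63 ± 0.10, adjusted p = 0.000142). Its chromosomal neighbours were higher by 0.40 in H2O2 than in ShNC libraries, and with that shift removed the value for YH minus H2O2 was −0.29 (adjusted p = 0.0352) and that for H2O2 minus ShNC −0.55 (adjusted p = 0.000432). SPC24 was also lower in H2O2 than in ShNC libraries without ShNC 4 and YH 3 and with no such shift removed, −0.24 (adjusted p = 0.0041). NDC80 averaged 23.6 ± 1.74 CPM in YH, 30.6 ± 1.58 in H2O2 and 35.9 ± 1.23 in ShNC libraries (SD, n = 4 each), and fell in both comparisons (−0.38 ± 0.07 for YH minus H2O2 and −0.23 ± 0.07 for H2O2 minus ShNC). The H2O2 minus ShNC call was lost without H2O2 2 (−0.19, adjusted p = 0.0606) and relative to neighbouring genes, −0.07 (adjusted p = 0.478). CENPA, the histone H3 variant that marks the centromere, fell in YH relative to H2O2 (−0.48 ± 0.08, adjusted p = 0.000282), and without ShNC 4 it was also lower in H2O2 than in ShNC libraries (−0.28, adjusted p = 0.000889), and likewise relative to neighbouring genes, −0.29 (adjusted p = 0.0121). All 5 kinetochore genes that fell in YH libraries did so without overlap with the H2O2 libraries. Of all genes tested, 22.7% lay below without overlap in that comparison. These 5 were picked as already called lower, so the lack of overlap is not separate support.

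CENPE, the kinetochore motor that carries chromosomes to the spindle equator, had 49.3, 53.5, 56.3 and 48.2 CPM in YH libraries, 69.1, 65.5, 70.3 and 68.3 CPM in H2O2 libraries and 81.95, 81.6, 76.02 and 97.3 CPM in ShNC libraries. The groups did not overlap, with YH lowest and ShNC highest. CENPE fell with H2O2 (−0.30 ± 0.08, adjusted p = 0.00445) and fell in YH relative to H2O2 (−0.40 ± 0.08, adjusted p = 0.000652). CENPF, a large kinetochore and nuclear envelope protein with the highest CPM of the role, had 443, 461, 462 and 437 CPM in YH libraries, 482, 472, 488 and 473 CPM in H2O2 libraries and 502, 522, 510.3 and 520.3 CPM in ShNC libraries. The groups again did not overlap, but the steps were small and not called (−0.10 ± 0.05, adjusted p = 0.107 for H2O2 minus ShNC, and −0.09 ± 0.05, adjusted p = 0.17 for YH minus H2O2). Both steps were called without ShNC 4 and YH 3, −0.10 (adjusted p = 0.00345) for H2O2 minus ShNC and −0.10 (adjusted p = 0.00468) for YH minus H2O2. The genes around CENPF on chromosome 1 were lower by −0.37 in H2O2 than in ShNC libraries, and relative to them CENPF was higher with H2O2, 0.27 (adjusted p = 0.000408), and lower in YH than in H2O2 libraries, −0.42 (adjusted p = 6.43e-06). Its direction with H2O2 therefore depends on whether neighbouring genes are taken into account.

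The chromosomal passenger complex, which places the kinase AURKB at centromeres and later at the midzone, fell with H2O2 in 3 of 4 genes. CDCA8, which encodes borealin, had 59.5, 59.6, 63.5 and 55.3 CPM in YH libraries, 57.02, 59.5, 58.8 and 55.5 CPM in H2O2 libraries and 78.6, 79.5, 80.1 and 73.6 CPM in ShNC libraries. All libraries with oxidant were below all ShNC libraries (−0.43 ± 0.06, adjusted p = 2.24e-05, for H2O2 minus ShNC), and YH and H2O2 libraries overlapped (0.04 ± 0.06, adjusted p = 0.588). BIRC5, which encodes survivin, had the highest CPM of the 4 genes, with 79.2, 87.2, 70.7 and 86.9 CPM in YH libraries, 91.3, 88.9, 89.4 and 91.3 CPM in H2O2 libraries and 109, 118, 117 and 93.01 CPM in ShNC libraries. H2O2 libraries were below ShNC libraries (−0.27 ± 0.08, adjusted p = 0.0118), and YH libraries were below H2O2 libraries without a call (−0.16 ± 0.08, adjusted p = 0.142). Without ShNC 4 that second value was −0.16 with an adjusted p of 0.0434. AURKB had 59.9, 58.8, 71.05 and 64.4 CPM in YH libraries, 74.2, 75.6, 73.7 and 69.4 CPM in H2O2 libraries and 85.8, 88.4, 88.7 and 75.8 CPM in ShNC libraries. It fell in both comparisons (−0.21 ± 0.07, adjusted p = 0.0273 for H2O2 minus ShNC, and −0.20 ± 0.07, adjusted p = 0.0331 for YH minus H2O2), although YH 3 overlapped the H2O2 libraries. The first call was lost without any 1 of ShNC 1, ShNC 2, ShNC 3, H2O2 1, H2O2 3 or H2O2 4 (−0.21 to −0.18, adjusted p from 0.0538 to 0.0897), and the second without any 1 of H2O2 1, H2O2 2, H2O2 3, YH 1, YH 2 or YH 4 (−0.21 to −0.17, 0.0562 to 0.106). Both calls were kept without ShNC 4 and YH 3 together, at −0.27 (adjusted p = 7.69e-07) and −0.26 (adjusted p = 1.92e-06). Relative to neighbouring genes the adjusted p was 0.0506 for the first and 0.0745 for the second. INCENP, the scaffold of the complex, was called in neither comparison (−0.18 ± 0.09 for H2O2 minus ShNC and 0.08 ± 0.09 for YH minus H2O2); without ShNC 4 it was lower with H2O2 (−0.27, adjusted p = 0.00436).

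The 8 kinesins, microtubule motors of the spindle and of chromosome arms, fell in YH relative to H2O2 libraries in 6 genes (KIF11, KIF20A, KIF18A, KIF23, KIF14 and KIF4A), and none rose. With H2O2 relative to ShNC, 4 fell (KIF20A, KIF18B, KIF2C and KIF4A). KIF20A (ENSG00000112984, chr5:138178719-138187715), the motor of the late midzone, had 37.7, 35.03, 47.6 and 37.03 CPM in YH libraries, 54.8, 53.2, 53.9 and 54.6 CPM in H2O2 libraries and 85.4, 84.3, 82.0 and 106 CPM in ShNC libraries. The groups stood in 3 separate ranges. KIF20A fell with H2O2 (−0.72 ± 0.10, adjusted p = 1.52e-05) and fell further in YH relative to H2O2 (−0.46 ± 0.10, adjusted p = 0.00119). The value for YH minus ShNC, −1.18 ± 0.10, adjusted p = 2.57e-07, was the largest of the 44 genes in that comparison. KIF11 (ENSG00000138160, chr10:92593286-92655395), the motor that separates the spindle poles, had 73.7, 76.7, 73.1 and 76.5 CPM in YH libraries, 105, 106, 99.5 and 109.8 CPM in H2O2 libraries and 106, 110.1, 109.8 and 112 CPM in ShNC libraries. H2O2 and ShNC libraries overlapped (−0.06 ± 0.05, adjusted p = 0.382), while all YH libraries were below both groups (−0.49 ± 0.05, adjusted p = 2.62e-06, for YH minus H2O2).

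KIF18A, which shortens kinetochore microtubules, showed the same order, with means of 32.7 ± 1.61 CPM in YH, 43.5 ± 4.05 in H2O2 and 44.03 ± 1.59 in ShNC libraries (SD, n = 4 each) and a fall of −0.41 ± 0.07 in YH relative to H2O2. KIF23, a motor of the midzone complex centralspindlin, fell by a log2 value of −0.32 ± 0.09 in the same comparison, and KIF14, which acts in cytokinesis, by −0.28 ± 0.06. Neither was called with H2O2 relative to ShNC (−0.04 for KIF23 and −0.09 for KIF14). KIF14 was lower with H2O2 without ShNC 4 and YH 3, −0.10 (adjusted p = 0.0439), whereas relative to its neighbours on chromosome 1 KIF14 was higher with H2O2, 0.24 (adjusted p = 0.00515), and lower in YH than in H2O2 libraries by more, −0.65 (adjusted p = 5.97e-07). KIF2C, which depolymerises microtubules at the centromere, had 109, 107, 106 and 111 CPM in YH libraries, 115, 115, 112 and 115 CPM in H2O2 libraries and 134, 142, 128 and 113 CPM in ShNC libraries. ShNC 4 lay within the range of the H2O2 libraries, apart from the other ShNC libraries. KIF2C fell with H2O2 (−0.18 ± 0.07, adjusted p = 0.0346), a call lost without any 1 of ShNC 1, ShNC 2, ShNC 3 or the 4 H2O2 libraries (−0.18 to −0.14, adjusted p from 0.0608 to 0.111) and kept without ShNC 4 and YH 3, −0.25 (adjusted p = 4.19e-07). It had the highest CPM of the kinesins and was not called in YH relative to H2O2 (−0.08 ± 0.07).

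KIF4A, the chromokinesin, fell slightly in both comparisons (−0.15 ± 0.06, adjusted p = 0.0449 for H2O2 minus ShNC, and −0.18 ± 0.06, adjusted p = 0.0218 for YH minus H2O2). The first call was lost without any 1 of the 4 H2O2 libraries, ShNC 1, ShNC 2, ShNC 3, YH 1, YH 2 or YH 4 (−0.16 to −0.12, adjusted p from 0.0525 to 0.149), and the second without H2O2 2, H2O2 3 or YH 2 (−0.16, 0.0556 to 0.0641). Both calls of KIF4A were kept without ShNC 4 and YH 3, at −0.19 (adjusted p = 0.000108) and −0.17 (adjusted p = 0.000451). KIF18B, which acts on astral microtubules, fell with H2O2 (−0.25 ± 0.09, adjusted p = 0.0366), a call lost without any 1 of ShNC 1, ShNC 2, ShNC 3 or the 4 H2O2 libraries (−0.27 to −0.23, 0.0503 to 0.0949) and kept without ShNC 4 and YH 3, −0.28 (adjusted p = 9.26e-07). In YH relative to H2O2 libraries it was not called, and without YH 3, which held 61.4 CPM against 43.6 to 46.5 in the other YH libraries, it was lower by −0.23 with an adjusted p of 0.00387. H2O2 libraries did not overlap ShNC libraries in either gene.

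**Figure D4:**
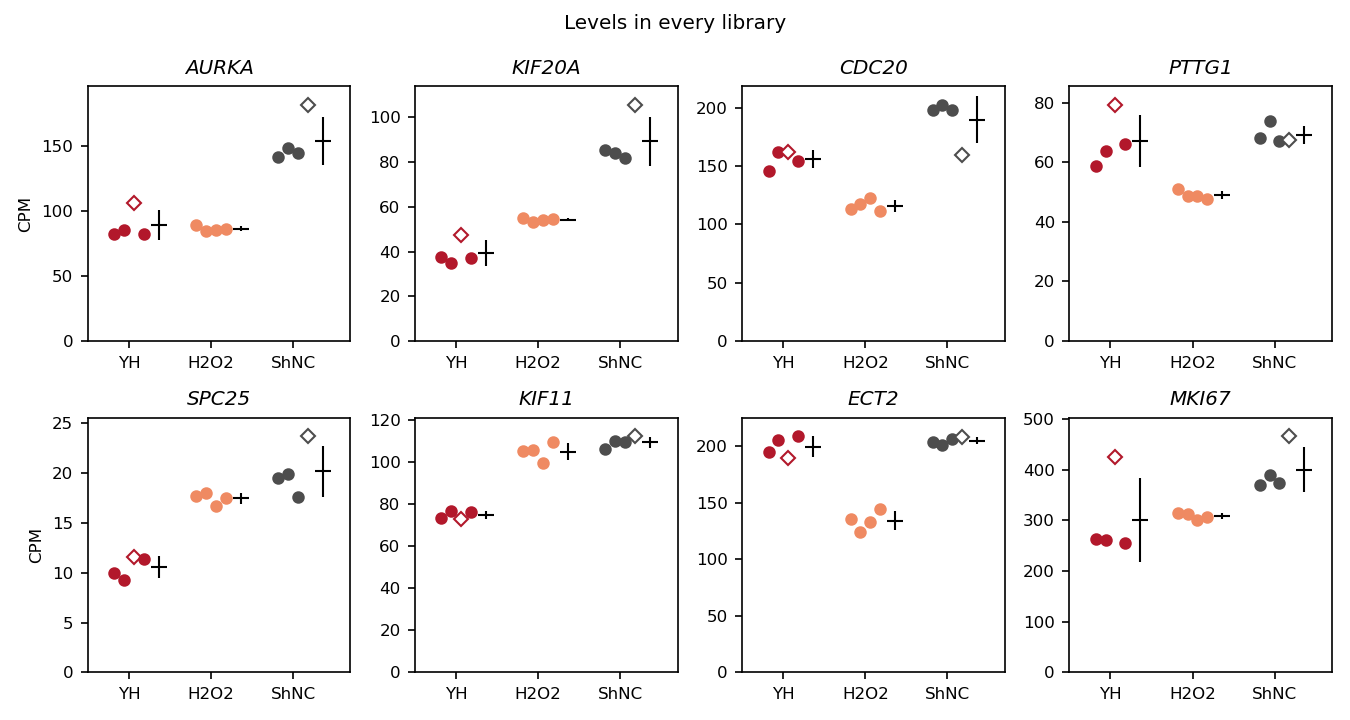
CPM of 8 genes in each library (linear axes from 0), with YH, H2O2 and ShNC from left to right; the bar right of each group is its mean ± SD (n = 4). Open diamonds are YH 3 and ShNC 4. AURKA is low in both groups with oxidant, KIF11 and SPC25 in YH libraries, and CDC20, PTTG1 and ECT2 are lowest in H2O2 libraries; MKI67 reaches 425 CPM in YH 3.

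Among the 5 genes of spindle assembly and the midzone, 3 fell with H2O2 (TPX2, HMMR and DLGAP5), while in YH relative to H2O2 libraries DLGAP5 fell and HMMR rose. TPX2, which activates AURKA on the spindle and has the highest CPM of the role, had 299, 291, 371 and 283 CPM in YH libraries, 276, 279.7, 287 and 284 CPM in H2O2 libraries and 338, 353, 346 and 444 CPM in ShNC libraries. Every H2O2 library was below every ShNC library (−0.40 ± 0.09, adjusted p = 0.00267), and YH and H2O2 libraries overlapped (0.14 ± 0.09, adjusted p = 0.242). Relative to neighbouring genes TPX2 was higher in YH than in H2O2 libraries, 0.29 (adjusted p = 0.0239). HMMR, a receptor for hyaluronan that also binds spindle microtubules, had 68.5, 66.5, 56.7 and 63.9 CPM in YH libraries, 50.04, 50.7, 55.4 and 51.2 CPM in H2O2 libraries and 68.1, 72.95, 69.8 and 76.3 CPM in ShNC libraries. H2O2 libraries were lowest and did not overlap the others (−0.47 ± 0.07, adjusted p = 4.18e-05 for H2O2 minus ShNC, and 0.30 ± 0.07, adjusted p = 0.00232 for YH minus H2O2). The genes around HMMR on chromosome 5 were also lower in H2O2 than in ShNC libraries, by −0.21; with that removed the 2 values were −0.27 (adjusted p = 0.00595) and 0.06 (adjusted p = 0.542). DLGAP5, which stabilises microtubules near chromosomes, had 56.04, 58.3, 54.3 and 56.4 CPM in YH libraries, 81.8, 71.7, 77.3 and 76.7 CPM in H2O2 libraries and 88.8, 90.7, 87.7 and 91.9 CPM in ShNC libraries. The 3 groups did not overlap (−0.22 ± 0.06, adjusted p = 0.00418 for H2O2 minus ShNC, and −0.45 ± 0.06, adjusted p = 1.20e-05 for YH minus H2O2), and YH was lowest. Relative to neighbouring genes the fall of DLGAP5 in YH was smaller, −0.18 (adjusted p = 0.0187), and that with H2O2 was larger, −0.41 (adjusted p = 2.39e-05).

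Both genes of cytokinesis fell with H2O2. ECT2 (ENSG00000114346, chr3:172750682-172821474), the exchange factor that activates RhoA at the cleavage furrow, had 196, 206, 189.7 and 209 CPM in YH libraries, 136, 124, 133 and 145 CPM in H2O2 libraries and 204, 202, 207 and 208 CPM in ShNC libraries. H2O2 libraries were lower than all others, and YH libraries overlapped ShNC libraries (−0.61 ± 0.06, adjusted p = 4.08e-07 for H2O2 minus ShNC, and 0.57 ± 0.06, adjusted p = 1.17e-06 for YH minus H2O2). The window of 51 tested genes at ECT2 on chromosome 3, ECT2 included, was lower in H2O2 than in ShNC libraries by a median of −0.56. In YH libraries it was higher by 0.03 than in ShNC libraries. With that shift removed, ECT2 had −0.05 (adjusted p = 0.539) for H2O2 minus ShNC and −0.02 (adjusted p = 0.797) for YH minus H2O2, so that it did not differ detectably from its neighbours. ANLN, which encodes anillin, a scaffold of the contractile ring, had 153, 159.5, 159.5 and 161 CPM in YH libraries, 172, 168, 182 and 169 CPM in H2O2 libraries and 251, 247, 246 and 284 CPM in ShNC libraries. Libraries with oxidant were below all ShNC libraries (−0.57 ± 0.06, adjusted p = 9.00e-07, for H2O2 minus ShNC). The genes around ANLN were higher by 0.12 in H2O2 than in ShNC libraries, and relative to them the value was −0.69 (adjusted p = 1.31e-07). In YH relative to H2O2, ANLN was not called (−0.12 ± 0.06, adjusted p = 0.104); without ShNC 4 the value was −0.12 with an adjusted p of 0.0209.

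TOP2A and MKI67, both read widely as markers of dividing cells, fell with H2O2. TOP2A, the topoisomerase that untangles sister chromatids, had 545, 558, 550.2 and 564 CPM in YH libraries, 552, 544, 538 and 551 CPM in H2O2 libraries and 656, 651, 661 and 682 CPM in ShNC libraries. The ShNC libraries were above all 8 others, which overlapped (−0.28 ± 0.05, adjusted p = 0.000192 for H2O2 minus ShNC, and 0.02 ± 0.05, adjusted p = 0.753 for YH minus H2O2). MKI67, which encodes the Ki-67 antigen on the surface of mitotic chromosomes, had 264, 261, 425 and 256 CPM in YH libraries, 314, 313, 302 and 308 CPM in H2O2 libraries and 371, 390.4, 373 and 466 CPM in ShNC libraries. YH 3 lay above every library but ShNC 4, while the other 3 YH libraries lay below every H2O2 library. MKI67 fell with H2O2 (−0.37 ± 0.14, adjusted p = 0.0394), and YH minus H2O2 was not called (−0.04 ± 0.14, adjusted p = 0.853). The first call was lost without any 1 of ShNC 2, ShNC 4 or the 4 H2O2 libraries (−0.39 to −0.30, adjusted p from 0.0591 to 0.133), and relative to neighbouring genes it was −0.33 (adjusted p = 0.0705). Without YH 3 the YH minus H2O2 value was −0.25 with an adjusted p of 0.00975. Without both ShNC 4 and YH 3 the values were −0.30 (adjusted p = 2.60e-10) for H2O2 minus ShNC and −0.25 (adjusted p = 1.91e-08) for YH minus H2O2.

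Of the 3 anaphase genes, 2 (CDC20 and PTTG1) fell with H2O2 relative to ShNC and rose in YH relative to H2O2. CDC20 (ENSG00000117399, chr1:43358955-43363203), the activator of the anaphase-promoting complex, had 146, 162, 162 and 155 CPM in YH libraries, 113, 117, 122 and 111 CPM in H2O2 libraries and 198, 202, 198 and 159.6 CPM in ShNC libraries. H2O2 libraries were lowest and overlapped neither other group. CDC20 fell with H2O2 relative to ShNC (−0.71 ± 0.07, adjusted p = 1.19e-06) and rose in YH relative to H2O2 (0.43 ± 0.07, adjusted p = 0.000242). PTTG1 (ENSG00000164611, chr5:160421822-160428744), which encodes securin, the inhibitor of separase, had 58.8, 63.96, 79.3 and 66.2 CPM in YH libraries, 51.03, 48.8, 48.7 and 47.8 CPM in H2O2 libraries and 68.3, 73.8, 67.2 and 67.5 CPM in ShNC libraries. Again the H2O2 libraries were lowest, while YH and ShNC libraries overlapped. PTTG1 fell with H2O2 (−0.50 ± 0.08, adjusted p = 0.000101) and rose in YH relative to H2O2 (0.45 ± 0.08, adjusted p = 0.000298). The genes around CDC20 were lower in H2O2 than in ShNC libraries by −0.19, and those around PTTG1 by −0.21. With these shifts removed all 4 calls were kept: CDC20 had −0.52 (adjusted p = 3.86e-05) and 0.26 (adjusted p = 0.0111), and PTTG1 had −0.28 (adjusted p = 0.00929) and 0.24 (adjusted p = 0.0289), for H2O2 minus ShNC and YH minus H2O2 in that order. UBE2C, the ubiquitin-conjugating enzyme of the same complex, was not called (−0.20 ± 0.09, adjusted p = 0.0893 for H2O2 minus ShNC, and 0.11 ± 0.09, adjusted p = 0.356 for YH minus H2O2), with 156 CPM in YH 3 against 111 to 120 in the other YH libraries; without YH 3 it was lower with H2O2 (−0.20, adjusted p = 0.0106). Relative to neighbouring genes UBE2C was lower with H2O2, −0.38 (adjusted p = 0.00392), and higher in YH than in H2O2 libraries, 0.38 (adjusted p = 0.00449).

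Set against untreated control cells, YH libraries had 31 of the 44 genes lower and 0 higher, with 13 not called, where 32.5% of all genes tested were called, 17.4% higher and 15.1% lower. The median was −0.36, against 0.00 over all genes tested. In 27 genes all YH libraries lay below all ShNC libraries, against 13.9% of all genes tested (29.7% in either direction). All 6 kinetochore genes and all 8 kinesins were lower, as were 6 of 9 entry genes, 3 of 5 checkpoint genes and 3 of 4 passenger genes. After KIF20A, the next largest falls were those of SPC25 (−0.94 ± 0.10), AURKA (−0.79 ± 0.09), SPC24 (−0.78 ± 0.10) and CENPE (−0.70 ± 0.08). ECT2 (−0.04 ± 0.06, adjusted p = 0.67), PTTG1 (−0.05 ± 0.08, adjusted p = 0.705) and UBE2C (−0.09 ± 0.09, adjusted p = 0.507) were not called. Library by library, the median over the 44 genes relative to the ShNC mean was −0.38, −0.38, −0.32 and −0.35 in YH libraries, and −0.22, −0.26, −0.26 and −0.26 in H2O2 libraries. Without ShNC 4 and YH 3, 39 genes were lower and 0 higher, where 46.8% of all genes tested were called and 22.8% were lower; the 8 genes gained were CDK1, CDC25B, FOXM1, MAD2L1, INCENP, TPX2, UBE2C and PTTG1. HMMR was not called (−0.17 ± 0.07, adjusted p = 0.0766) and was lower relative to neighbouring genes, −0.21 (adjusted p = 0.0328). The calls of MKI67 (without ShNC 2, ShNC 4, YH 1, YH 2 or YH 4, −0.43 to −0.34, adjusted p from 0.0587 to 0.112) and PLK1 (without ShNC 4, YH 1, YH 2 or YH 4, −0.37 to −0.34, 0.0772 to 0.0840) in this comparison were lost on leaving out 1 library, and those of BUB1 (−0.25 to −0.21, 0.0516 to 0.0815) and BUB1B (−0.21 to −0.20, 0.0582 to 0.0716) without YH 1, YH 2 or YH 4. TPX2 was lower without ShNC 1 or YH 3 (adjusted p from 0.00334 to 0.0427), INCENP without ShNC 4 (0.0420), and FOXM1 (0.00185) and UBE2C (0.0219) without YH 3.

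A wider list of 98 other mitosis genes had 42 lower and 9 higher with H2O2 relative to ShNC, with a median of −0.17, beside 22.6% lower and 23.9% higher over all genes tested. In YH relative to H2O2 libraries 26 were lower and 18 higher, with a median of −0.07, near the 21.0% lower and 22.0% higher of all genes tested. In YH relative to ShNC 45 were lower and 4 higher, beside 15.1% and 17.4%. The same background holds for the shorter lists that follow. Condensin, the complex that compacts chromosomes, had 6 of 8 subunit genes lower with H2O2 and 0 of 8 called between YH and H2O2 libraries. Other kinetochore genes had 9 of 28 lower and 3 higher with H2O2, and 11 lower and 4 higher in YH relative to H2O2. Of 18 S phase genes, 9 were lower and 0 higher with H2O2, 6 lower and 2 higher in YH relative to H2O2, and 13 lower and 1 higher in YH relative to ShNC. S phase genes thus also included genes that fell with H2O2.

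In that wider list the genes that rose most with H2O2 were MAD1L1, the kinetochore anchor of MAD2 (1.35 ± 0.18, adjusted p = 1.28e-05), FZR1, the CDH1 activator of the anaphase-promoting complex (0.49 ± 0.11, adjusted p = 0.00215), and WEE1, the kinase that restrains CDK1 (0.39 ± 0.07, adjusted p = 0.000155). FZR1 had 44.2, 41.4, 47.4 and 40.7 CPM in YH libraries, 61.4, 61.1, 59.5 and 61.9 CPM in H2O2 libraries and 46.1, 50.7, 45.99 and 31.03 CPM in ShNC libraries. It also fell in YH relative to H2O2 (−0.49 ± 0.11, adjusted p = 0.00244), so the 2 activators of the complex, FZR1 and CDC20, had opposite signs in both comparisons. These signs are those of values with no shift of neighbouring genes removed. The genes around FZR1 were higher than in ShNC libraries by 0.45 in H2O2 and by 0.14 in YH libraries. The largest falls with H2O2 were those of PMF1 (−1.31 ± 0.13), STAG1 (−1.05 ± 0.06) and ANAPC15 (−0.87 ± 0.11). Other annotated genes overlap 23.3% of the exon bases of PMF1, 21.2% of STAG1 and 27.1% of ANAPC15, so these values are uncertain. CKS1B, a subunit of CDK complexes, had 96.04, 97.3, 115 and 94.7 CPM in YH libraries, 51.5, 54.3, 56.4 and 53.3 CPM in H2O2 libraries and 92.8, 98.4, 94.2 and 104 CPM in ShNC libraries. It rose in YH relative to H2O2 (0.90 ± 0.07), after PMF1 (1.13 ± 0.13) and STAG1 (0.99 ± 0.06). The neighbours of CKS1B were lower by −0.70, those of PMF1 by −0.56 and those of STAG1 by −0.58 in H2O2 than in ShNC libraries. The largest falls in YH relative to H2O2 were those of the kinetochore gene CENPK (−0.72 ± 0.07, adjusted p = 1.20e-06), FBXO5, the EMI1 inhibitor of the anaphase-promoting complex (−0.55 ± 0.07, adjusted p = 9.10e-06), and FZR1.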

How the data were processed

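RNA-seq libraries of HK-2 cells (4 per group, 12 in all) were analysed from the deposited tables of raw read counts per gene. Per the labels' protocols, mRNA was selected with oligo(dT) and sequenced as paired ends. The submitters' processing notes name HISAT2, featureCounts (Subread), DESeq2 and GRCh38. Not given in the sources used here were versions, annotation release, strandedness and the treatment of reads shared by genes. Reads of overlapping or antisense genes can therefore not be told apart. Symbols came from a table of gene names, positions and exon lengths from GENCODE 29 on GRCh38, and promoters from RefSeq (GRCh38.p14).

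Counts were tested with edgeR 4.0.16 in R 4.3.3 (filterByExpr, leaving 19268 genes, TMM scaling, robust quasi-likelihood fit with 1 mean per group over all 12 libraries, 9 residual degrees of freedom, common dispersion 0.0163), with Benjamini-Hochberg adjustment over all genes tested and calls at an adjusted p under 0.05. The fit was also run on simulated counts with 1 spread for all libraries, unlike YH 3 and ShNC 4 here, and nothing is concluded from that. Two-sided tests are reported as log2 fold changes with standard errors, derived from the F statistic. CPM use TMM-scaled library sizes. DESeq2 1.42.0, other scalings, no filter, a replicate block and subsets of libraries were alternatives. Another was an offset for the median shift of a window of 51 genes that included the gene. Motif shares are descriptions. The members and the lists of genes were chosen with earlier results of these data known. Values in every library are given for MKI67, TOP2A, AURKA, PLK1, CDK1, CCNB1, FOXM1 and YAP1 and, in each role, for the gene of highest mean CPM and the called genes of largest rise and fall. Of the other mitosis genes, up to 3 rises and 3 falls with a mean of at least 5 CPM are named per comparison.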

Additional observations from a re-analysis of the deposited data

Results flagged for a closer look

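In each of the 44 genes and 3 groups the highest or lowest library was compared with the other 3 of its group, 132 checks in all, and 20 libraries' values lay so far out that the gap to the nearest, as a share of the group's range, passed Dixon's critical value. By chance about 1 in 20 groups is marked in this way. Of the 20, 8 were in YH 3, 11 in ShNC 4 and 1 in ShNC 2, and the checks share libraries, so they are not independent.

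In YH 3, MKI67 (425 CPM), FOXM1 (127.5), AURKA (106.5), PLK1 (95.7), CCNA2 (102.8), KIF18B (61.39) and CDC25C (13.95) were above the other YH libraries, and CCNB1 (102.8) was below them. In ShNC 4, TPX2 (444.2 CPM), ANLN (283.8), AURKA (181.8), BUB1 (152.9), CCNA2 (152.7), KIF20A (105.6) and BUB1B (78.49) were above the other ShNC libraries, and CDC20 (159.6), CDK1 (148.3), MAD2L1 (74.85) and CENPA (30.81) were below them. PTTG1 was high in ShNC 2 (73.76 CPM). YH 3 and ShNC 4 are also the libraries with the highest mitochondrial share, 11.3% and 13.9%, whose part in these values was not tested.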

How the results depend on the processing

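Counts of called mitosis genes and of all genes called stayed within 1.5 times the reported ones under every alternative run, with 2 exceptions. Without ShNC 4 and YH 3, 4455 of all genes in place of 2903 were called lower in YH than in ShNC. With the shift of neighbouring genes removed, 2 genes in place of 0 were called higher in H2O2 than in ShNC, namely CENPF (log2 fold change 0.27) and KIF14 (0.24), both negative otherwise. In YH minus H2O2, ECT2 changed sign under that setting (−0.022, not called), and CDK1 changed sign without ShNC 4 and YH 3 (0.10, called). The causes were not tested. Leaving out each library in turn gave 19 to 26 lower in H2O2 minus ShNC, 13 to 19 lower and 4 to 5 higher in YH minus H2O2, and 27 to 34 lower in YH minus ShNC.

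Replicate numbers did not pair the libraries: correlations of deviations from group means ran from −0.22 to 0.10 over 12 same-numbered pairs, with 1 above 0.1, and from −0.22 to 0.39 over other pairs. The 0.39 was that of ShNC 4 with YH 3, which therefore deviated from their groups partly in the same genes and direction. The lowest value of each range also involved ShNC 4 (with YH 4) or YH 3 (with ShNC 2). With the replicate number as a block, 21 genes were lower in H2O2 minus ShNC, 16 lower and 4 higher in YH minus H2O2, and 31 lower in YH minus ShNC. Library sizes alone moved the median of all genes by at most 0.09 and gave 17, 19 and 31 lower in these comparisons. At the low counts of PRC1 and NUSAP1, standard errors in H2O2 minus ShNC were 0.28 and 0.36, so only large changes could be called. PRC1 had −0.60 there (adjusted p = 0.0898, edgeR).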
